A study of Rattus norvegicus with 9 samples.

Results

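The rat major histocompatibility complex (MHC), called RT1, was followed in CD4+ T cells of arthritic and normal rats. Its members here were every gene whose annotated name starts with RT1-, together with B2m, Cd74, Ciita, Nlrc5, Tap1, Tap2 and Tapbp, provided that it was above 0 TPM, a length-corrected share of a library's transcripts, in at least 3 of 9 libraries. The names gave 48 genes and 43 of them met this condition, out of 44509 gene units in the whole series. The 5 left out were RT1-CE10 and the pseudogenes RT1-M1-1-ps, RT1-M10-2-ps, RT1-M3-2-ps and RT1-P2-ps1. The RT1-B, RT1-D and RT1-H genes, Cd74 and Ciita made up 13 class II members, and the other 30 members were counted as class I. Of the 43 members, 39 lay on chromosome 20, 36 were above 0 TPM in all 9 libraries, and 29 reached the mean of 1 TPM that was required for testing.

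MHC class I molecules are a heavy chain bound to beta-2 microglobulin, the product of B2m, and they show peptides from inside the cell to CD8+ T cells. The peptides are pumped into the endoplasmic reticulum by Tap1 and Tap2 and are loaded with the help of tapasin, the product of Tapbp, and Nlrc5 switches class I genes on. MHC class II molecules are pairs of an alpha and a beta chain that show peptides to CD4+ T cells. Their assembly needs the invariant chain Cd74, RT1-DM exchanges the bound peptide, RT1-DO restrains RT1-DM, and Ciita switches class II genes on. Class II is best known from B cells, dendritic cells and macrophages.

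All rats were SD rats, an outbred stock, aged 8 to 10 weeks, and the RNA was total RNA from CD4+ T cells of peripheral blood. The combination group held 3 libraries from CIA rats that received a combination of compounds over 4 weeks, the model group 3 libraries from CIA rats, and the normal group 3 libraries from normal rats. CIA is read as collagen-induced arthritis, and the labels name neither the compounds nor the way the cells were selected. Nor do they state whether libraries of a group are different animals, and p-values therefore reflect only library-to-library spread, which may be technical. File headers of the combination libraries hold names unlike their labels, and samples were grouped by label.

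The ratio of coverage to FPKM in the files put the depth at 7.52 to 10.1 gigabases per library. The files give no read counts, so no counting intervals were derived. Cd3e, a chain of the T cell receptor complex, lay at 143 to 383 TPM and Cd4 at 18.8 to 63.0 TPM over the 9 libraries. Other blood cells left signal too. The 15 listed monocyte and macrophage genes, 13 of them above 0 TPM, summed to 342 to 657 TPM in combination, 70.0 to 186 TPM in model and 29.4 to 165 TPM in normal libraries. The 15 listed B cell genes, all above 0 TPM, summed to 12.3 to 23.7 TPM in combination, 7.30 to 19.2 TPM in model and 11.7 to 41.3 TPM in normal libraries. The 8 listed platelet genes summed to 65.1 to 108 TPM in combination, 15.1 to 28.1 TPM in model and 8.54 to 27.3 TPM in normal libraries. The 9 listed erythroid genes, 6 of them above 0 TPM, summed to 260 to 861 TPM in combination, 2287 to 13520 TPM in model and 58.8 to 1115 TPM in normal libraries. The 8 listed neutrophil genes summed to 5.84 to 11.02 TPM in combination, 2.47 to 10.4 TPM in model and 14.7 to 34.9 TPM in normal libraries. The 8 listed genes of NK and CD8+ T cells summed to 12.1 to 22.8 TPM in combination, 5.95 to 13.6 TPM in model and 21.5 to 29.7 TPM in normal libraries. The T cell genes themselves, 8 of 10 listed above 0 TPM, summed to 1062 to 1509 TPM in combination, 805 to 1054 TPM in model and 948 to 1873 TPM in normal libraries. Cd3g, 1 of these genes, ran from 1.36 to 798 TPM over the libraries by its annotated transcripts. Of the 12 listed dendritic cell genes 11 were above 0 TPM, and their sum of 50.6 to 1544 TPM was led by Ccr7, which naive T cells also express. Xcr1 and Cd209a were at 0 TPM in most libraries and did not exceed 0.0489 and 0.0722 TPM, and Clec9a did not exceed 0.133 TPM. Flt3 lay at 0.0769 to 0.708 TPM, Zbtb46 at 0.0356 to 0.665 TPM, Clec10a at 0.0781 to 0.970 TPM and Irf8 at 6.003 to 19.3 TPM. Itgax, which macrophages also express, had 4.09, 3.33 and 2.21 TPM in combination, 2.03, 0.682 and 0.596 TPM in model and 0.384, 0.0794 and 1.22 TPM in normal libraries, and its combination libraries lay above all others. In RNA from a cell population, fewer cells of a type and less RNA per cell cannot be told apart.

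No member passed the test in any of the 3 comparisons, at an adjusted p under 0.05 by limma with Benjamini-Hochberg adjustment over all 19499 genes tested. Of the 29 members tested, 0 were called between combination and model, where 0.456% of all genes were. Between model and normal, 0 were called where 1.36% of all genes were. Between combination and normal, 0 were called where 0.621% of all genes were. At an unadjusted limma p under 0.05 the members numbered 3 between combination and model, 5 between model and normal and 3 between combination and normal. The shares of all genes at that level were 22.1%, 22.5% and 20.9%, each larger than the share among the members.

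The annotated transcripts held only a small part of the class I RNA. Each file lists annotated transcripts, which carry a gene name, beside transcripts that the authors assembled from the reads, which carry none. When assembled transcripts were added to the named gene whose exons they overlapped most, 91.8% of the TPM of the 25 class I RT1 genes lay in assembled transcripts, between 86.5% and 94.0% by library. The share was 16.7% for class II genes and 26.8% for all named genes. Levels are given for annotated transcripts unless assembled transcripts are named. With these added, 34 members and RT1-CE10 could be tested among 14311 genes, and 0 of these 35 were called in each comparison, where 4.36% of all genes were called between combination and model, 4.87% between model and normal and 4.35% between combination and normal. At an unadjusted limma p under 0.05 they numbered 2, 6 and 4 in the same order of comparisons, where 26.2%, 26.9% and 26% of all genes were.

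**Figure D1:**
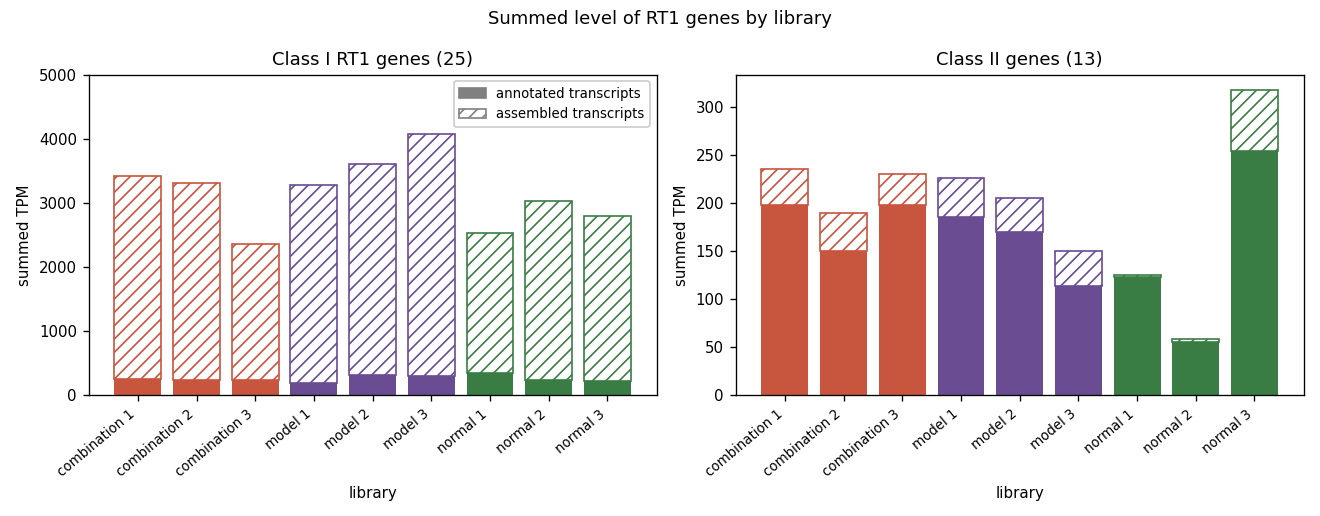
Summed TPM of the 25 class I RT1 genes (left) and of the 13 class II genes (right) in each library, as bars from 0, with annotated transcripts filled and assembled transcripts hatched. The hatched part is 86.5% to 94.0% of each class I bar, while the class II bars are mostly filled and differ most among the normal libraries.

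The class I RT1 genes are mostly genes for heavy chains, which form the part of the molecule that holds the peptide. They include the pseudogenes RT1-CE9-ps1, RT1-M10-3-ps and RT1-M10-4-ps. Together they summed to similar levels in annotated transcripts. The 25 class I RT1 genes reached 257, 237 and 239 TPM in combination replicates 1, 2 and 3. They reached 198, 310 and 308 TPM in model replicates 1, 2 and 3, and 341, 231 and 216 TPM in normal replicates 1, 2 and 3. The ranges overlapped in every comparison. Once assembled transcripts were added, the sum was 3423, 3316 and 2366 TPM in combination libraries. It was 3287, 3603 and 4078 TPM in model libraries and 2531, 3028 and 2793 TPM in normal libraries. All model libraries then lay above all normal libraries, while the combination libraries overlapped both groups. The log2 ratio of the group means was -0.27 for combination over model, 0.39 for model over normal and 0.13 for combination over normal. A sum over genes was not tested. On the same scale the erythroid sums were higher in all model than in all normal libraries, and the neutrophil, NK and CD8+ T cell and T cell sums were lower. Their part in this difference was not tested.

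The promoters of class I genes are shown because 4 of them hold a pair of elements that is textbook knowledge for class I genes of mammals, enhancer A, where NF-kB factors bind, and the interferon-stimulated response element (ISRE), where IRF factors bind. RefSeq promoters of build GRCr8, 250 bases before to 50 after each gene's start, were matched by symbol to 34 of the 42 member names, 24 of class I and 10 of class II. Enhancer A, spelled GGG, any 2 bases, T, any base and CCC, was searched on both strands and lay in 5 of 24 class I promoters and 3 of 10 class II promoters, beside 5.12% of 33469 promoters. The ISRE, spelled GAA, any 2 bases and GAAAC, was searched in the same way and lay in 7 class I and 0 class II promoters, beside 1.65% of all. In RT1-A1 (chr20:4907073-4907122, plus strand), RT1-A2 (chr20:4872687-4872735, plus strand), RT1-CE16 (chr20:3265535-3265584, minus strand) and RT1-CE4 (chr20:3509311-3509360, minus strand) both matched without overlap, and no other member's promoter held both. Capitals mark enhancer A and, after it, the ISRE as read on the opposite strand.
RT1-A1: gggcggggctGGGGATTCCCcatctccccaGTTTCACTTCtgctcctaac
RT1-A2: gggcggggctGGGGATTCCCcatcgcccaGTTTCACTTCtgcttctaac
RT1-CE16: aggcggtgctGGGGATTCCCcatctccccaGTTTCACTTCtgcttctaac
RT1-CE4: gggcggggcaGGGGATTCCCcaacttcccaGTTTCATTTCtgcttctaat
The elements lay 9 bases apart in RT1-A2 and 10 bases apart in the other 3. The values of RT1-A2, RT1-A1 and RT1-CE16 come first, and RT1-CE4 is described after them.

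RT1-A2 encodes a classical class I heavy chain and is annotated at chr20:5374985-5378539 on the plus strand of rn6, the build of the deposited files, from which all further positions are taken. Its annotated transcripts gave 25.4, 17.4 and 13.2 TPM in combination libraries, 0.148, 29.3 and 6.87 TPM in model libraries and 9.09, 134 and 3.13 TPM in normal libraries. The highest library, normal replicate 2, and the lowest, model replicate 1, lay far outside the others of their groups. Counting assembled transcripts too, RT1-A2 had 1112, 1103 and 817 TPM in combination, 1266, 1308 and 1168 TPM in model and 377, 1154 and 1000 TPM in normal libraries. All model libraries then lay above all combination and all normal libraries. In log2, the fold change of combination over model was 1.55 in annotated transcripts (95% interval -1.66 to 4.76, limma adjusted p = 0.560) and -0.32 with assembled ones (-1.12 to 0.49, adjusted p = 0.614). That of model over normal was -1.45 in annotated transcripts (-4.66 to 1.75, adjusted p = 0.573) and 0.72 with assembled ones (-0.08 to 1.52, adjusted p = 0.229). The sign of both thus depends on which transcripts are counted.

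RT1-A1, a classical gene of the same locus, at chr20:5351605-5421098, gave 4.35, 3.46 and 11.1 TPM in combination, 5.90, 8.24 and 13.2 TPM in model and 12.3, 2.67 and 16.9 TPM in normal libraries. With assembled transcripts added, it gave 289, 232 and 165 TPM in combination, 218, 150 and 318 TPM in model and 269, 123 and 110 TPM in normal libraries. The groups overlapped on both scales. The log2 fold change of model over normal was 0.02 (95% interval -1.39 to 1.42, limma adjusted p = 0.990) in annotated transcripts.

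RT1-CE16, a class I gene of the RT1-C/E region at chr20:3791407-3796275, had the highest annotated level of all heavy chain genes. It gave 104, 136 and 106 TPM in combination, 106, 166 and 181 TPM in model and 242, 0.697 and 106 TPM in normal libraries. Normal replicate 2 stood apart from the other 8 libraries. Its value was 42.8 TPM with assembled transcripts added, where the other libraries had 164 to 338 TPM. In log2, the fold change of model over normal was 2.07 (95% interval -1.41 to 5.55, limma adjusted p = 0.451) and, without normal replicate 2, -0.13. That of combination over normal was 1.71 (-1.77 to 5.19, adjusted p = 0.564) and, without that library, -0.49.

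RT1-N2, a non-classical gene at chr20:3146856-3150852, gave 39.4, 32.6 and 22.9 TPM in combination, 25.2, 19.9 and 33.7 TPM in model and 21.4, 44.1 and 25.3 TPM in normal libraries. The groups overlapped in all 3 comparisons, and its log2 fold changes were 0.26, -0.16 and 0.10 for combination over model, model over normal and combination over normal (limma adjusted p = 0.680, 0.797 and 0.896). Assembled transcripts brought it to 74.9, 62.8 and 56.0 TPM in combination, 49.6, 51.8 and 63.6 TPM in model and 51.5, 109 and 68.2 TPM in normal libraries, and combination over normal became -0.18.

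Other heavy chain genes were named after their values were seen. RT1-CE4 and RT1-CE5 had annotated means of 4.91 and 15.2 TPM over the 9 libraries, and 662 and 292 TPM with assembled transcripts added. RT1-CE4 then gave 634, 666 and 452 TPM in combination, 591, 758 and 926 TPM in model and 628, 646 and 660 TPM in normal libraries. Its groups overlapped in every comparison, and its within-group standard deviation of log2 values was 0.258, beside a median of 0.276 over all genes on that scale. RT1-CE10 was above 0 TPM in 1 library by annotated transcripts, normal replicate 3 at 2.80 TPM. With assembled transcripts it was present in all, at 126, 91.3 and 105 TPM in combination, 72.2, 72.5 and 109 TPM in model and 67.2, 88.3 and 71.0 TPM in normal libraries. Its combination libraries lay above its normal libraries, with a log2 fold change of 0.50 (95% interval 0.04 to 0.97, limma adjusted p = 0.162). RT1-CE3 gave 1.62, 1.15 and 1.84 TPM in combination, 2.18, 1.37 and 7.88 TPM in model and 0.608, 0.301 and 0.568 TPM in normal libraries. Both its combination and its model libraries lay above the normal ones, and model over normal had a log2 fold change of 1.45 (0.46 to 2.45, adjusted p = 0.112). Assembled transcripts brought RT1-CE3 to 33.2, 16.0 and 18.2 TPM in combination, 50.7, 24.7 and 50.1 TPM in model and 27.1, 13.8 and 12.1 TPM in normal libraries, where the groups overlapped and model over normal was 1.21 (0.34 to 2.09, limma adjusted p = 0.0952). By annotated transcripts it was 1 of 3 members past the threshold when model replicate 2 was left out, where 1982 of all 19499 genes passed. RT1-T24-2, another class I gene, gave 1.21, 1.87 and 1.28 TPM in model and 2.98, 2.49 and 2.35 TPM in normal libraries, with a log2 fold change of -0.56 (-1.02 to -0.10, adjusted p = 0.157). The 11 class I members that were not tested included RT1-M3-1, RT1-M4, RT1-M5 and several pseudogenes, and no untested member exceeded 1.78 TPM in any library.

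The assembled class I transcripts were often high in some libraries and near 0 in others. Of 18 assembled transcripts given to class I genes that reached 100 TPM in a library, 10 were under 1 TPM in another library, or 55.6%. The same held for 39.3% of all 771 assembled transcripts that reached 100 TPM and for 20.4% of all 1768 transcripts that did. One assembled transcript of RT1-A2, of 938 bases in 9 exons, reached 486 TPM in model replicate 1 and 566 TPM in normal replicate 2, was 50.8 TPM in model replicate 2 and stayed at or below 0.404 TPM in the other 6 libraries. Another, of 939 bases in 8 exons, reached 236 TPM in combination replicate 3 and 497 TPM in model replicate 2, was 2.502 TPM in normal replicate 3 and was at or below 0.0192 TPM elsewhere. The libraries with such a transcript came from all 3 groups. Several RT1 class I genes overlap in the assembled loci, and the authors' sharing of reads between them was not described. For that reason the value of a single heavy chain gene is less certain than a sum over them. SD rats are outbred, and their RT1 genotypes were not given. The part of read sharing or of genotype in these values was not tested.

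**Figure D2:**
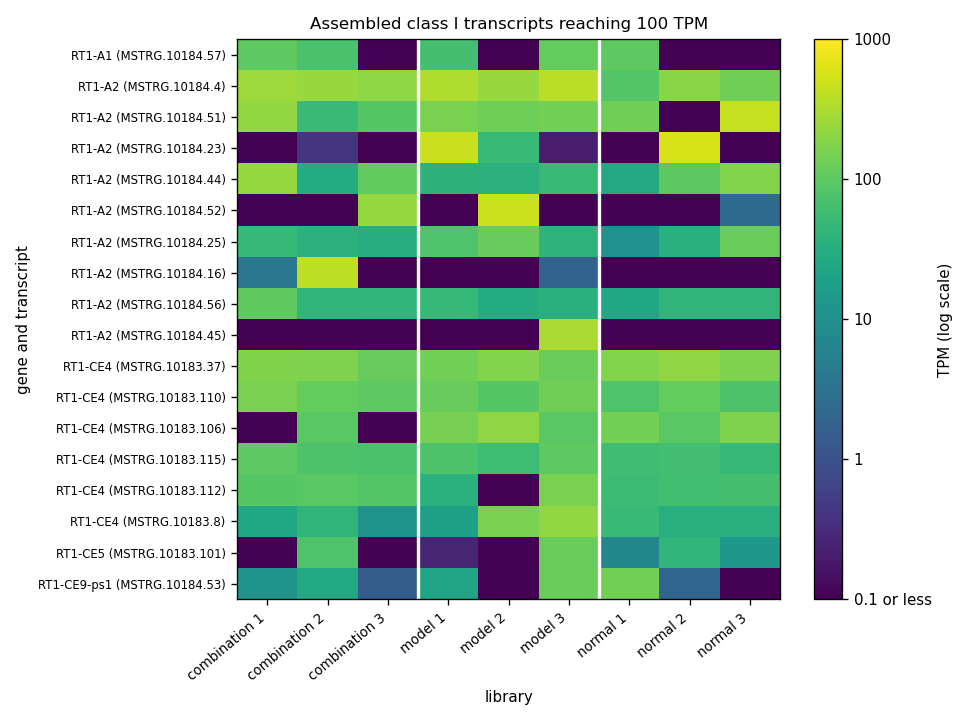
TPM of the 18 assembled class I transcripts that reached 100 TPM, as colour on a log scale from 0.1 or less to 1000, with genes and transcript names down the page and the 9 libraries across, separated into combination, model and normal by white lines. In 10 of the 18 rows at least 1 library is under 1 TPM. For the RT1-A2 transcripts described above, such libraries are found in each group, and gaps within groups were not counted over the rows.

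B2m, the light chain of every class I molecule, had the highest level and the smallest within-group spread of the 29 tested members. It is a single annotated transcript at chr3:114087287-114093309 and gave 3424, 3273 and 2921 TPM in combination, 3754, 3215 and 4053 TPM in model and 3573, 3219 and 3196 TPM in normal libraries. The groups overlapped in every comparison. Its log2 fold change was -0.19 for combination over model (95% interval -0.47 to 0.09, limma adjusted p = 0.391), 0.14 for model over normal (-0.14 to 0.42, adjusted p = 0.534) and -0.06 for combination over normal (-0.33 to 0.22, adjusted p = 0.834). The 3 intervals together ran from -0.47 to 0.42. Its within-group standard deviation of log2 values was 0.13, while the median was 0.581 over the 19 class I members tested, 0.554 over the 10 class II members and 0.324 over all genes tested.

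The peptide-loading genes were present at moderate levels and also did not pass the test. Tap1, a subunit of the peptide transporter, at chr20:3979035-3989669, gave 114, 116 and 30.2 TPM in combination, 71.8, 130 and 41.3 TPM in model and 73.4, 22.8 and 32.8 TPM in normal libraries. The groups overlapped, and the spread within each group was wide. Its log2 fold change was 0.01 for combination over model (95% interval -1.45 to 1.48, limma adjusted p = 0.995) and 0.92 for model over normal (-0.54 to 2.38, adjusted p = 0.427). Counting assembled transcripts too, Tap1 gave 169, 151 and 80.7 TPM in combination, 94.98, 156 and 72.5 TPM in model and 101, 82.2 and 88.4 TPM in normal libraries.

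Tap2, the other subunit of the transporter, at chr20:3995544-4009587, lay at only 0.385 to 2.68 TPM by its annotated transcript and at 41.5 to 99.0 TPM with assembled transcripts added. The annotated transcript gave 1.78, 2.35 and 2.68 TPM in combination and 1.09, 1.81 and 0.385 TPM in model libraries, with a log2 fold change of 0.69 (95% interval 0.03 to 1.35, limma adjusted p = 0.211). With assembled transcripts added, the values were 99.0, 86.6 and 63.0 TPM in combination and 63.1, 77.8 and 41.5 TPM in model libraries, with a log2 fold change of 0.46 (-0.12 to 1.05, adjusted p = 0.293). The ratio of Tap1 to Tap2 ran from 11.2 to 107 by annotated transcripts and from 0.973 to 2.00 with assembled transcripts added.

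Tapbp, at chr20:5468078-5476193, gave 31.9, 37.2 and 20.4 TPM in combination, 26.4, 54.4 and 19.8 TPM in model and 50.1, 45.5 and 51.3 TPM in normal libraries. All combination libraries lay below all normal ones, with a log2 fold change of -0.74 (95% interval -1.55 to 0.08, limma adjusted p = 0.281). Model replicate 2 lay above the normal libraries and the other 2 model libraries below them. The log2 fold change of model over normal was -0.66 (-1.47 to 0.15, adjusted p = 0.311). When model replicate 2 was left out it was -1.06, with a limma adjusted p of 0.0459. In that setting 1982 of all 19499 genes passed.

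Nlrc5, the switch of class I genes, was measured mostly through assembled transcripts, which held 90.5% of its TPM. Its annotated transcript, at chr19:10905542-10976396, gave 8.70, 8.19 and 4.63 TPM in combination, 4.92, 4.05 and 2.33 TPM in model and 4.61, 8.52 and 5.01 TPM in normal libraries. In log2, the fold change of combination over model was 0.78 (95% interval 0.04 to 1.52, limma adjusted p = 0.205). Once assembled transcripts were added, it gave 82.8, 72.2 and 61.0 TPM in combination, 41.9, 46.7 and 56.9 TPM in model and 44.8, 73.7 and 57.8 TPM in normal libraries. All combination libraries then lay above all model libraries, with a log2 fold change of 0.56 (0.09 to 1.04, adjusted p = 0.136). The difference kept its direction when either kind of transcript was counted and did not pass the test in either. The monocyte and platelet sums were also higher, and the erythroid sum lower, in all combination than in all model libraries, and their part in this difference was not tested.

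**Figure D3:**
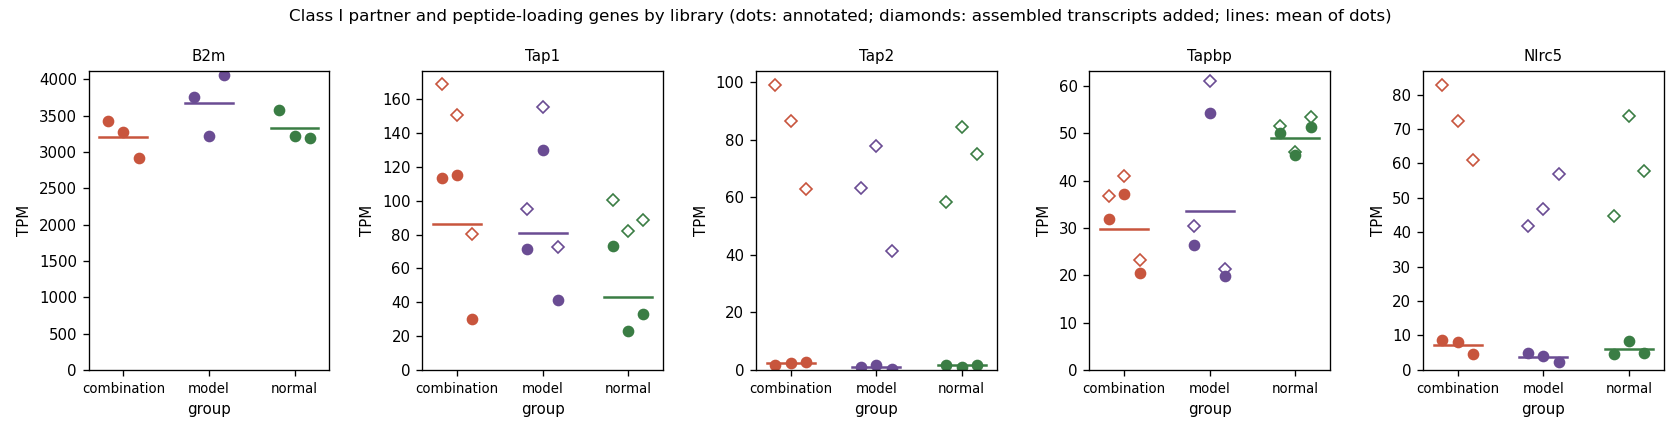
TPM of B2m, Tap1, Tap2, Tapbp and Nlrc5, with 1 panel for each gene and the 3 libraries of the combination, model and normal groups from left to right. Filled dots are annotated transcripts with their group mean as a line, and open diamonds have assembled transcripts added; Tap2 and Nlrc5 stand near 0 as dots and at 41.5 TPM or more as diamonds.

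Over the 19 class I members tested, the median log2 fold change was -0.19 for combination over model, where it was 0.02 over all genes tested. It was 0.017 for model over normal, where all genes had 0.004, and 0.097 for combination over normal, where all genes had 0.039. Non-overlapping groups were found for 0 class I members between combination and model, 4 between model and normal and 3 between combination and normal. The shares of all genes with non-overlapping groups were 24.9%, 29.5% and 30.9% in these comparisons. Between model and normal, RT1-CE1, RT1-CE3 and RT1-CE4 were higher in model, as were 16.6% of all genes, and RT1-T24-2 was lower in model, as were 12.9%. The neutrophil and NK and CD8+ T cell sums were lower and the erythroid sum higher in all model libraries too, and their part was not tested. Between combination and normal, RT1-CE3 was higher in combination, as were 15.9% of all genes, and RT1-T24-2 and Tapbp were lower in combination, as were 15%. The monocyte and platelet sums were higher and the neutrophil sum lower in all combination than in all normal libraries, and their part was not tested. Counting assembled transcripts too, the counts were 2, 3 and 3 of 25 class I genes, beside 26.8%, 33.1% and 35.6% of all genes, and RT1-CE1, RT1-CE3 and RT1-CE4 were no longer among them.

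Class II RNA was present in every library. The 13 class II members summed to 199, 151 and 198 TPM in combination, 186, 170 and 114 TPM in model and 123, 55.3 and 255 TPM in normal libraries. In normal replicate 3 the class II sum was above that of the 25 class I RT1 genes by annotated transcripts, and in the other 8 libraries it was below. The normal libraries held both the lowest and the highest sum, so the groups overlapped in every comparison. Their means were 182 ± 27.5, 157 ± 38.0 and 144 ± 101 TPM in combination, model and normal libraries (SD, n = 3 each). The log2 ratio of means was 0.22 for combination over model, 0.12 for model over normal and 0.34 for combination over normal. Without normal replicate 3 the last 2 became 0.81 and 1.03, and without normal replicate 2 they became -0.27 and -0.05. Normal replicate 2 was the lowest of the 9 libraries in 8 of the 10 class II members tested, and normal replicate 3 the highest in 3 of them. Normal replicate 3 also had the highest sum of B cell genes, 41.3 TPM, and normal replicate 2 the lowest of its group, 11.7 TPM. Sums of monocyte genes were 165 TPM in normal replicate 3 and 29.4 TPM in normal replicate 2. Over the 9 libraries these sums did not keep the order of the class II sums. Model replicate 1 had the lowest B cell sum, 7.30 TPM, with a class II sum of 186 TPM. Combination replicate 2 had a monocyte sum of 607 TPM with a class II sum of 151 TPM. The part of other cell types in the class II levels was not tested.

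Cd74, the invariant chain, at chr18:56071478-56080849, was the highest class II member. It gave 98.3, 73.8 and 97.5 TPM in combination, 90.0, 79.6 and 57.3 TPM in model and 49.7, 18.3 and 151 TPM in normal libraries. The combination libraries were close together and the normal libraries spread over both sides of them. Its log2 fold change was 0.26 for combination over model (95% interval -1.15 to 1.67, limma adjusted p = 0.847), 0.51 for model over normal (-0.90 to 1.91, adjusted p = 0.662) and 0.77 for combination over normal (-0.64 to 2.17, adjusted p = 0.518).

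The X box and the Y box are shown because they are the elements of class II promoters known to be bound by RFX and NF-Y, to which Ciita is recruited. The Y box letters CCAAT, searched on both strands, lay in 10 of 10 class II promoters and 15 of 24 class I promoters, beside 37.5% of all promoters. The X box, spelled CTAG, any 2 bases, AC, any base and GA, lay in 3 class II and 0 class I promoters, beside 0.753% of all. These 3 promoters were those of RT1-Da (chr20:4515320-4515380, plus strand), RT1-Db1 (chr20:4560228-4560287, minus strand) and RT1-DOb (chr20:4627592-4627649, minus strand) in GRCr8. Capitals mark the X box and, after it, the Y box as read on the opposite strand, with 25, 24 and 22 bases between them.
RT1-Da: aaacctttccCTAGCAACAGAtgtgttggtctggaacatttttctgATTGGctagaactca
RT1-Db1: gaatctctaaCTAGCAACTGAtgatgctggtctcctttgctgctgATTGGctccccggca
RT1-DOb: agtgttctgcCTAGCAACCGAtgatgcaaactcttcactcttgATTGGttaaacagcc
A match of letters is a description of the window and not of binding. The 3 genes did not all share a pattern across the groups. By annotated transcripts all model libraries lay below all normal libraries in RT1-Db1 and RT1-DOb, while in RT1-Da these groups overlapped. With assembled transcripts added they overlapped in RT1-Db1 too, and its log2 fold change of model over normal was 0.77, beside 0.71 for RT1-Da.

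RT1-Da and RT1-Db1 encode the alpha and beta chain of the rat counterpart of human HLA-DR. RT1-Da, at chr20:4127644-4132616, gave 25.01, 12.7 and 36.8 TPM in combination, 38.2, 30.3 and 15.3 TPM in model and 17.7, 6.03 and 26.0 TPM in normal libraries. The groups overlapped in all comparisons, and its log2 fold change was -0.19 for combination over model (95% interval -1.49 to 1.11, limma adjusted p = 0.883) and 0.83 for model over normal (-0.47 to 2.13, adjusted p = 0.419). Assembled transcripts brought it to 30.1, 27.7 and 41.3 TPM in combination, 45.7, 37.7 and 31.6 TPM in model and 19.9, 9.26 and 62.3 TPM in normal libraries, with model over normal at 0.71.

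RT1-Db1, at chr20:4087618-4097190, had the smallest p of all members, and its direction turned with the transcripts counted. Its annotated transcripts gave 9.36, 3.99 and 7.78 TPM in combination, 4.71, 3.88 and 2.88 TPM in model and 13.4, 9.08 and 12.0 TPM in normal libraries. All model libraries lay below all normal libraries, with a log2 fold change of -1.38 (95% interval -2.06 to -0.69, limma adjusted p = 0.060). The neutrophil and NK and CD8+ T cell sums were also lower, and the erythroid sum higher, in all model than in all normal libraries, and their part was not tested. In FPKM, another of the deposited units, the RT1-Db1 difference was -1.31 with a limma adjusted p of 0.0447, where 761 of all 19499 genes passed. When model replicate 2 was left out it was -1.40 with a limma adjusted p of 0.0489, where 1982 of all genes passed. With assembled transcripts added, RT1-Db1 gave 42.0, 28.2 and 35.6 TPM in combination, 37.6, 31.5 and 23.2 TPM in model and 13.9, 9.25 and 39.2 TPM in normal libraries. The log2 fold change of model over normal was then 0.77 (-0.21 to 1.75, adjusted p = 0.280), and that of combination over normal was 0.97 (-0.01 to 1.94, adjusted p = 0.196) where it was -0.69 by annotated transcripts (-1.37 to -0.001, adjusted p = 0.239). An assembled transcript of 1022 bases in 5 exons held all of the TPM added in the normal libraries and most of that added elsewhere. It gave 32.6, 24.2 and 16.4 TPM in combination, 32.9, 25.3 and 20.3 TPM in model and 0.432, 0.171 and 27.1 TPM in normal libraries, so it was near 0 in 2 normal libraries.

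RT1-Ba and RT1-Bb, the chains of the counterpart of HLA-DQ, were covered by annotated transcripts. RT1-Bb, at chr20:4039413-4049711, gave 16.3, 16.4 and 17.6 TPM in combination, 18.4, 14.8 and 11.6 TPM in model and 8.70, 4.298 and 16.9 TPM in normal libraries. Its log2 fold change was 0.87 for combination over normal (95% interval -0.02 to 1.76, limma adjusted p = 0.248) and 0.69 for model over normal (-0.20 to 1.58, adjusted p = 0.330). RT1-Ba, at chr20:4066132-4070721, gave 7.67, 7.29 and 6.22 TPM in combination, 8.67, 9.16 and 6.03 TPM in model and 4.51, 2.77 and 10.2 TPM in normal libraries. In both genes normal replicates 1 and 2 were the lowest libraries and normal replicate 3 lay among the other groups or above them.

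RT1-DMa and RT1-DMb encode the peptide exchanger of class II molecules. RT1-DMa, at chr20:5240975-5244386, gave 15.5, 14.4 and 9.08 TPM in combination, 11.6, 19.3 and 8.69 TPM in model and 4.79, 4.08 and 9.93 TPM in normal libraries. Normal replicate 3 overlapped the other groups. Its log2 fold change was 0.98 for model over normal (95% interval 0.12 to 1.84, limma adjusted p = 0.175) and 1.00 for combination over normal (0.14 to 1.86, adjusted p = 0.183). RT1-DMb was annotated at 2 places, chr20:5227045-5234290 and chr20:3945601-3952846, and reads could be shared between them. The sum of both was 18.1, 10.9 and 9.64 TPM in combination, 9.29, 4.81 and 3.58 TPM in model and 3.71, 1.37 and 11.5 TPM in normal libraries. At the second place it gave 8.41, 7.31 and 4.63 TPM in combination and 4.01, 1.63 and 1.91 TPM in model libraries, which did not overlap, with a log2 fold change of 1.17 (-0.05 to 2.40, adjusted p = 0.243). The monocyte, platelet and erythroid sums did not overlap between these groups either. The T cell sums were apart by annotated transcripts only. With assembled transcripts added they overlapped, at 1837 to 2213 TPM in combination and 1545 to 2004 TPM in model libraries. The part of these cell types was not tested.

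RT1-DOa and RT1-DOb encode the pair that restrains RT1-DM. RT1-DOb, at chr20:4020317-4026346, gave 5.94, 8.51 and 8.73 TPM in combination, 3.79, 6.66 and 6.80 TPM in model and 19.0, 8.49 and 11.7 TPM in normal libraries. All model libraries lay below all normal libraries, with a log2 fold change of -1.03 (95% interval -1.75 to -0.30, limma adjusted p = 0.119), opposite in sign to RT1-DMa. The same 3 marker sums as for RT1-Db1 stood apart between these groups, and their part was not tested. RT1-DOa, at chr20:3889370-3892449, gave 1.34, 1.96 and 3.52 TPM in combination, 0.960, 1.23 and 1.18 TPM in model and 1.304, 0.594 and 4.07 TPM in normal libraries. Its combination libraries lay above its model libraries, with a log2 fold change of 0.57 (-0.38 to 1.53, adjusted p = 0.461). The monocyte and platelet sums were likewise higher and the erythroid sum lower in all combination than in all model libraries. The T cell sum was higher too by annotated transcripts, but its groups overlapped with assembled transcripts added. The part of these cell types was not tested. The ratio of RT1-DMa to RT1-DOb, which was chosen after the values were seen and was not tested, was 2.62, 1.69 and 1.04 in combination, 3.05, 2.90 and 1.28 in model and 0.252, 0.481 and 0.846 in normal libraries. It was above 1 in all libraries from CIA rats and below 1 in all normal libraries. This ratio takes a single chain of each pair, and ratios with the other chains were not computed. RT1-DMb, as the sum of both places, and RT1-DOa overlapped between the normal group and both other groups. The neutrophil sum was also lower in all libraries from CIA rats than in all normal libraries, and its part was not tested.

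Ciita, the switch of class II genes, at chr10:5213350-5260608, lay between 0.170 and 0.677 TPM over the 9 libraries and was too low to test. Its lowest library was normal replicate 2 and its highest normal replicate 3, the same libraries as for Cd74. RT1-Ha and RT1-Db2 did not exceed 0.533 TPM.

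**Figure D4:**
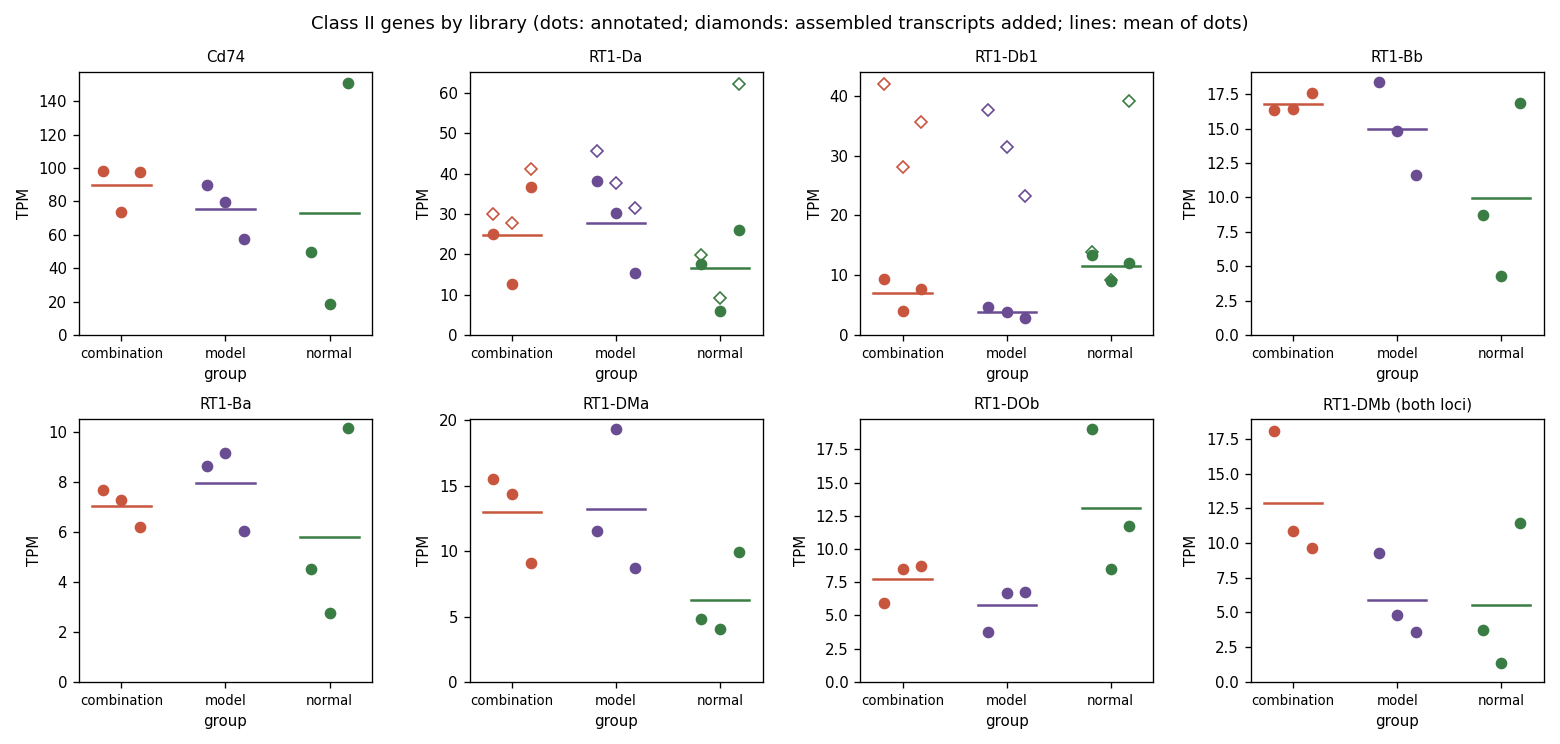
TPM of 8 class II genes in the libraries of the combination, model and normal groups from left to right, with filled dots for annotated transcripts, a line for their group mean and open diamonds where assembled transcripts add to a gene. The normal libraries spread most in Cd74, from 18.3 to 151 TPM, and RT1-Db1 is lower in model than in normal by dots but not by diamonds.

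Over the 10 class II members tested, the median log2 fold change was 0.32 for combination over model, 0.43 for model over normal and 0.70 for combination over normal, where all genes had 0.02, 0.004 and 0.039. The log2 fold change was above 0 in 8, 7 and 8 of the 10, beside 51.7%, 50.3% and 53.3% of all genes tested. RT1-DMb makes up 2 of the 10, as each of its places was counted, and it was above 0 at both in all 3 comparisons. Normal replicate 2 was the lowest library in 8 of the 10, and the medians were not recomputed without single libraries. For Cd74, combination over normal ran from 0.04 without normal replicate 2 to 1.53 without normal replicate 3. Groups did not overlap in 2 class II members between combination and model, RT1-DMb at its second place and RT1-DOa, both higher in combination, as were 12.8% of all genes. They did not overlap in 2 between model and normal, RT1-DOb and RT1-Db1, both lower in model, as were 12.9% of all genes, and in 0 between combination and normal. The median half-width of the 95% interval was 0.92 in log2 over the class II members and 0.96 over the class I members. It was 0.60 over all genes tested. These intervals are unadjusted, and a difference smaller than a member's half-width could not be told from 0. The adjusted threshold asked for more, as RT1-Db1 at -1.38 for model over normal did not pass it (limma adjusted p = 0.060). The 3 comparisons share groups, and their values are not independent of each other.

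**Figure D5:**
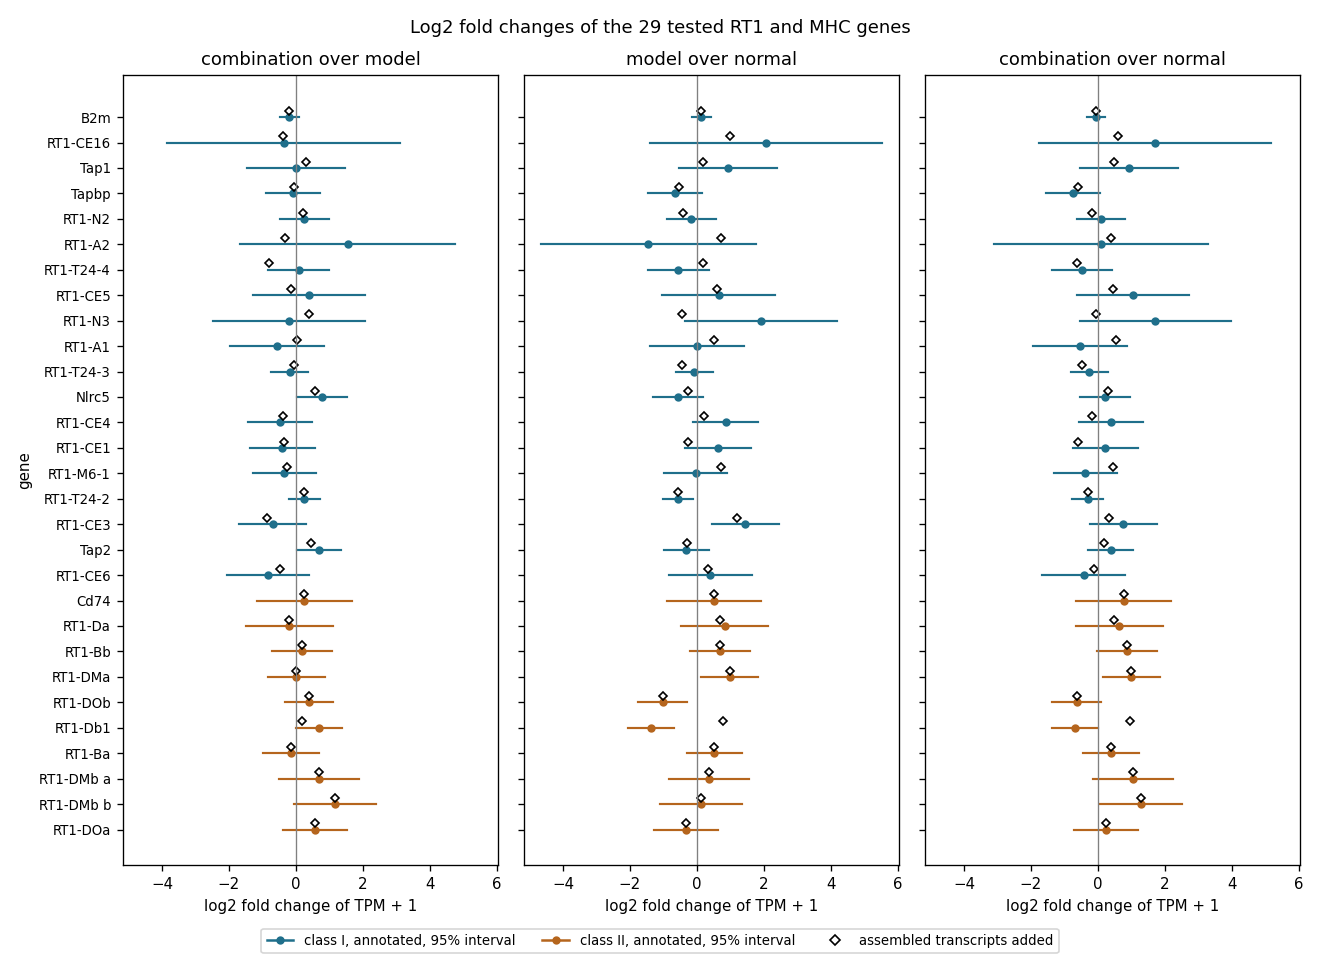
Log2 fold changes of TPM + 1 for the 29 tested members in 3 panels, combination over model, model over normal and combination over normal, with dots and 95% intervals from annotated transcripts in blue for class I and orange for class II, and open diamonds for the values with assembled transcripts added. RT1-DMb a and b are its places at chr20:5227045-5234290 and chr20:3945601-3952846. No dot passed the adjusted threshold. In model over normal the diamonds fall on the other side of 0 from the dots for RT1-A2, RT1-CE1, RT1-Db1, RT1-M6-1, RT1-N3 and RT1-T24-4.

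Other genes of antigen presentation came from a list of 35 names, which holds proteasome subunits, chaperones, proteases, interferon response factors and the RFX and NF-Y factors, of which 26 were tested. Between model and normal 2 were higher, beside 0.759% of all genes called higher, and 1 was lower, beside 0.605% called lower. Calr, calreticulin, a chaperone of class I heavy chains, had 1034, 819 and 1341 TPM in model and 483, 343 and 341 TPM in normal libraries, with a log2 fold change of 1.44 (95% interval 0.95 to 1.94, limma adjusted p = 0.0312). Irf1, a factor that binds ISRE elements, had 126, 168 and 167 TPM in model and 72.9, 42.2 and 39.5 TPM in normal libraries, with a log2 fold change of 1.60 (0.93 to 2.26, adjusted p = 0.0436). Rfxank, a subunit of the RFX complex, had 0.424, 1.73 and 0.521 TPM in model and 4.72, 6.52 and 7.01 TPM in normal libraries, with a log2 fold change of -1.96 (-2.62 to -1.29, adjusted p = 0.0312). Once assembled transcripts were added, Calr and Irf1 were again higher in model, beside 2.77% of all genes called higher, and Rfxank stood at -0.77 with an adjusted p of 0.0588. The groups did not overlap in any of the 3 genes. The erythroid sum was also higher, and the neutrophil and NK and CD8+ T cell sums lower, in all model than in all normal libraries. Their part was not tested. The 3 genes were not followed under the remaining alternatives. With the replicate number as a block, 1 of all genes was called in this comparison.

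Between combination and model, 0 of the 26 passed by limma, beside 0.456% of all genes. An unadjusted limma p under 0.05 was found for 8 of the 26, beside 22.1% of all genes. The 3 with the smallest p were Calr, Rfxank and Pdia3, an oxidoreductase of class I loading. Calr had 559, 463 and 434 TPM in combination libraries, below all model libraries, with a log2 fold change of -1.11 (95% interval -1.61 to -0.62, limma adjusted p = 0.0608). Rfxank had 3.73, 2.34 and 2.67 TPM in combination libraries, with a log2 fold change of 1.10 (0.43 to 1.76, adjusted p = 0.0932). Assembled transcripts brought Rfxank to 9.94, 6.72 and 8.03 TPM in combination and 5.04, 8.23 and 6.34 TPM in model libraries, where the groups overlapped and the log2 fold change was 0.30 (limma adjusted p = 0.376). Pdia3 had a log2 fold change of -0.53 (-0.87 to -0.19, adjusted p = 0.106). Counting assembled transcripts too, 2 of 29 were lower in combination, beside 2.01% of all genes called lower. They were Calr, at -1.11 with a limma adjusted p of 0.0316, and Nfya, a subunit of NF-Y, at -1.01 with an adjusted p of 0.0442. The monocyte and platelet sums were higher and the erythroid sum lower in all combination than in all model libraries, and their part was not tested.

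Between combination and normal, 0 of the 26 passed by limma, beside 0.621% of all genes. An unadjusted limma p under 0.05 was found for 4 of the 26, beside 20.9% of all genes. Those with the smallest p were Psme2, a subunit of the proteasome activator, Irf1 and Rfxank. Psme2 had 38.2, 45.0 and 45.7 TPM in combination and 71.2, 69.8 and 88.7 TPM in normal libraries, with a log2 fold change of -0.81 (limma adjusted p = 0.108). Irf1 had 115, 101 and 64.6 TPM in combination libraries, with 1 of them below the highest normal library, and a log2 fold change of 0.86 over normal (adjusted p = 0.153). For Rfxank it was -0.86, at an adjusted p of 0.155.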

How the data were processed

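RNA from 9 libraries of CD4+ T cells, 3 per group, was sequenced with a NEBNext Ultra kit. Reads were aligned with HISAT2 to rn6, per the submitters' processing notes, and StringTie 1.3.3b estimated known and assembled transcripts of a merged annotation, per the file headers. The deposited coverage, FPKM and TPM values are the authors' and are given per transcript; how reads shared by near-identical genes were split is not given in the sources used here. TPM of annotated transcripts were summed per name and gene ID.

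Every gene whose mean reached 1 TPM was tested with limma 3.58.1 in R 4.3.3 on log2(TPM + 1), a scale that understates changes of low genes, in 1 fit of the 3 groups with an intensity trend and Benjamini-Hochberg adjustment at 0.05. The fit was tested on simulated data. Alternatives were another pseudocount, filter, unit, scaling, transcript set, model or replicate block, and each library left out. Assembled transcripts were given to the named gene with the largest exon overlap.

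The members and lists were chosen with earlier results of these data known. Values in every library are given for members past the threshold, the 6 class I and 6 class II members with the highest mean TPM, and the classical class I, class II, loading and transactivator genes. Genes of the antigen presentation list are named where past the threshold, or else the 3 with the smallest p. Promoters came from RefSeq (GRCr8).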

Additional observations from a re-analysis of the deposited data

How the results depend on the processing

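The number of members past the threshold stayed at 0 in all 18 settings for combination over model and for combination over normal. For model over normal it was 0 in 16 of 18 settings. In FPKM it was 1 of 29 (RT1-Db1), where 761 of all 19499 genes passed. Without model replicate 2 it was 3 of 29 (RT1-CE3, RT1-Db1 and Tapbp), where 1982 of all 19499 genes passed. It thus ran from 0 to 3 over the libraries left out. Assembled transcripts were also added with libraries left out, a combination chosen after seeing the data. The number of members then ran from 0 to 0 for combination over model and from 0 to 4 for model over normal (4 without model replicate 2). For combination over normal it ran from 0 to 1 (1 without normal replicate 3). How many of all genes passed in these combined settings was not counted.

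Member counts come from few genes, so their ranges cannot be set against those over all genes. The number of all genes past the threshold also moved. For combination over model it was 89 (37.1% higher), and 736 in FPKM (54.8%), 847 with median-ratio scaling (47.8%), 480 without haemoglobin, mitochondrial and ribosomal protein genes (63.1%), 624 with assembled transcripts added (54.0%) and 13 with only the 2 groups compared. For model over normal it was 266, and 761, 676, 531, 697 and 30 under the same settings in the same order. For combination over normal it was 121 (51.2% higher), and 598, 656, 369 (61.5%), 622 and 485, with 238 without a filter. Over the libraries left out, the counts ran from 10 (without combination replicate 1) to 549 (without model replicate 2), from 4 (without normal replicate 2) to 1982 (without model replicate 2), and from 14 (without normal replicate 2) to 122.

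With the replicate number as a block, 1, 1 and 2 genes passed in these comparisons and 0 members did, also with assembled transcripts added. Same-numbered libraries correlated at -0.0597 to 0.0679 in their deviations from the group means, and 2 of 9 libraries correlated best with their own number. The labels give no pairing, and these correlations cannot show whether same-numbered libraries shared a batch.

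Of 957 values of the 19 named and tested members under alternatives, 910 kept their direction and side of the threshold, 3 passed it and 44 turned in direction. With assembled transcripts added, combination over model became 0.03 for RT1-A1 and -0.32 for RT1-A2, model over normal 0.72 for RT1-A2 and 0.77 for RT1-Db1, and combination over normal 0.53 for RT1-A1, 0.97 for RT1-Db1 and -0.18 for RT1-N2. With median-ratio scaling, combination over model became -0.00 for RT1-DMa and -0.01 for Tap1. With a pseudocount of 5, model over normal became -0.05 for RT1-A1 and -0.01 for RT1-DMb at its second place, and combination over normal -0.12 for RT1-A2. Model over normal of RT1-A1 was -0.07 in FPKM and -0.03 with those abundant genes removed. The cause was not tested.

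Over the libraries left out, values of both signs were found for combination over model in RT1-DMa (-0.22 to 0.31), RT1-Da (-0.56 to 0.21), Tap1 (-0.39 to 0.64) and Tapbp (-0.38 to 0.33). They were found for model over normal in Cd74 (-0.22 to 1.27), RT1-A1 (-0.67 to 0.47), RT1-A2 (-2.57 to 0.01), RT1-CE16 (-0.13 to 3.46), RT1-DMb at its second place (-0.46 to 0.68), RT1-DOa (-0.69 to 0.14) and RT1-N2 (-0.37 to 0.13). For combination over normal they were found in B2m (-0.10 to 0.01), RT1-A2 (-0.96 to 1.56), RT1-CE16 (-0.49 to 3.10), RT1-DOa (-0.12 to 0.72) and RT1-N2 (-0.11 to 0.39).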
